A study of Mus musculus with 120 samples.

Results

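Single ILC2 that were secreting IL-5 after stimulation (labelled Activated, index IL5, 11 cells) were compared with ILC2 recovered before any stimulus (labelled Pre-stimulation, index IL5, 5 cells). The members are the count files whose source label names this index and either of these states, and all 16, of 120 cells in the series, passed the minimum of 10000 gene reads. The ILC2 came from the mesentery of 20 wildtype C57BL/6 mice, which was pooled, and were sorted as lineage-negative, c-Kit+ Sca-1+ cells. Both groups share this pool of mice and a culture of several months with IL-2 before the experiment, so the pre-stimulation cells were resting but cultured cells, not cells taken directly from tissue. Activated cells were given IL-2 and IL-33 on the imaging chip and were taken at random among those with a secretion signal at 1 set time after stimulation. Pre-stimulation cells carry the treatment label none.

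ILC2 are tissue-resident lymphocytes that lack rearranged antigen receptors and respond to alarmins such as IL-33, whose receptor chain ST2 is encoded by Il1rl1. IL-33 signals through MyD88 to NF-kB and AP-1, and IL-2 acts through STAT5. Activated ILC2 release IL-5, the growth factor of eosinophils, and IL-13, which acts on epithelium and mucus-producing cells.

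The promoter sequences of 4 cytokine genes are shown because these genes had 0 reads in all 5 resting cells and a read in all 11 activated cells. Each is the 250 bases before the RefSeq start in GRCm38.p6, read 5′ to 3′ on the strand of the gene. Capitals mark matches to 5 motifs on either strand. The AP-1 and NF-kB motifs are given by name and can be read from the capitals that are 7 and 10 bases long. The STAT motif searched was TTCNNNGAA. For GATA factors the letters were AGATAA. For NFAT factors they were GGAAA, which can lie inside an NF-kB match.
Il5 (chr11:53720544-53720793, plus strand): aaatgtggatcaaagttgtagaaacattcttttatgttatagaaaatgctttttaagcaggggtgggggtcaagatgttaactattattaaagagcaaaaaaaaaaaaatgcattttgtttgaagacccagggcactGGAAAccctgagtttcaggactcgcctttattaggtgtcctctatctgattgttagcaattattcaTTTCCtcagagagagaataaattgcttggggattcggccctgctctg
Il13 (chr11:53634703-53634952, minus strand): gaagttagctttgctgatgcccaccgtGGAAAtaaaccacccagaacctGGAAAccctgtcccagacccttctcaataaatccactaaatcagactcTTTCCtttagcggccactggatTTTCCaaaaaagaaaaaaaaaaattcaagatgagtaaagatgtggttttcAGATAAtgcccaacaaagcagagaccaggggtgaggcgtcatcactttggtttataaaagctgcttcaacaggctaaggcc
Il9 (chr13:56482258-56482507, minus strand): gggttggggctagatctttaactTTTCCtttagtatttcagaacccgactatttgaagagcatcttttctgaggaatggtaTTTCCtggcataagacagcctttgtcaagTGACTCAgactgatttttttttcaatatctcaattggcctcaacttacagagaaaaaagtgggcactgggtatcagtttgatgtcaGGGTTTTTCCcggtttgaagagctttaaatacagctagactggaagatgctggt
Il6 (chr5:30012864-30013113, plus strand): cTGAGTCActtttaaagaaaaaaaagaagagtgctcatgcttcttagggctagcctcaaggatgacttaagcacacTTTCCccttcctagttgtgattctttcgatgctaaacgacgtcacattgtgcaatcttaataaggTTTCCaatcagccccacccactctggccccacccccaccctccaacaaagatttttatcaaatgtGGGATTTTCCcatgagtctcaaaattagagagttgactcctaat
The Il9 and Il6 windows each held 1 AP-1 match, 1 NF-kB match and 3 NFAT matches, of which 1 lay inside the NF-kB match. The Il13 window held 1 GATA match and 4 NFAT matches. The Il5 window held 2 NFAT matches and none of the other letters. Among 32851 promoter windows of this length, 6.75% held the AP-1 letters, 7.02% the STAT letters, 1.41% the NF-kB letters, 9.99% the GATA letters and 55.6% the NFAT letters. These matches describe letters only.

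Gene reads per cell ranged from 223789 to 465179 in activated cells and from 133373 to 306589 in pre-stimulation cells. After thinning each cell to 100000 gene reads, activated cells had reads in 2325 to 3513 genes (median 3013) and pre-stimulation cells in 1861 to 2506 (median 2254), and without thinning the medians were 3305 and 2591. Reads outside annotated genes made up 2.46% to 8.65% of the reads of activated cells and 7.16% to 14.4% of those of pre-stimulation cells. Mitochondrial genes held 1.05% to 2.76% of gene reads in activated cells and 1.68% to 3.36% in pre-stimulation cells. The part of these differences in the results, and of reads carried between libraries of a pool, was not tested. Sample titles carry 2 dates. All pre-stimulation cells and activated cells 1 to 5 have the first date, and activated cells 6 to 11 have the second. Libraries were pooled in sets of 5 or 6, and each state on each date has 5 or 6 cells, so the state and the pool cannot be told apart. Among 16 markers of ILC2, 13 were compared, and Gata3, Id2, Il1rl1, Il2ra, Il2rg and Ly6a were read in every cell. Thy1 was read in 2 of 5 pre-stimulation and 7 of 11 activated cells, Il7r in 3 and 3, and Il17rb in 1 and 1, and Ptgdr2 and Areg had 0 reads in all 16 cells. Of 64 markers of other cell types, 56 had 0 reads in both groups, and 4 exceeded 50 CPM in a group (Cd3g, Trbc2, Ighm and Fcer1a).

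Because every library is 1 cell with no label for the mouse or culture behind it, a group counted as 1 sample and no test was made. Levels are CPM, reads of a gene per 1000000 gene reads, from the summed reads of a group or from 1 cell. A gene was compared where the mean CPM of both groups was at least 50, and was called higher or lower where the summed CPM differed by at least 4-fold. Intervals are exact 95% counting intervals, which cover the sampling of reads only, and reads carry no molecular identifiers. A group under 3 reads was set to a floor of 3 reads over the group, 0.804 CPM in activated and 2.47 CPM in pre-stimulation cells. Where a group had 0 reads, the fold is a lower bound.

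Of 2762 genes compared, 403 (14.6%) were higher and 619 (22.4%) were lower in activated cells. The median log2 ratio of all genes compared was -0.32. Scaling by edgeR's TMM factors raised each log2 ratio by 0.52. It also rescaled the CPM behind the minimum of 50, so a changed set of genes was compared, with 616 higher and 395 lower. Medians given with TMM scaling are over the genes then compared and need not move by 0.52. A difference of at least 4-fold in the sums, with the activated cells of either date alone and on leaving out any 1 cell was found for 326 higher genes (11.8%) and 285 lower genes (10.3%). Every activated cell lay above every pre-stimulation cell for 70 genes (2.53%) and below every one for 33 genes (1.19%). Of these 70 genes, 34 had 0 reads before stimulation, and 54 had at least 10 reads in every activated cell. With the pre-stimulation cells of both indexes, 21 genes lay above and 6 below. A pre-stimulation cell of the IL-13 index had reads in 3899 genes after thinning to 100000 gene reads. More than 50% of the pre-stimulation reads came from 1 cell for 467 (75.4%) of the lower genes, while 1 activated cell held more than 50% of the reads for 20 (4.96%) of the higher genes. These shares are set over 5 and 11 cells and are not comparable, since 1 cell of a smaller group holds such a share more readily.

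**Figure D1:**
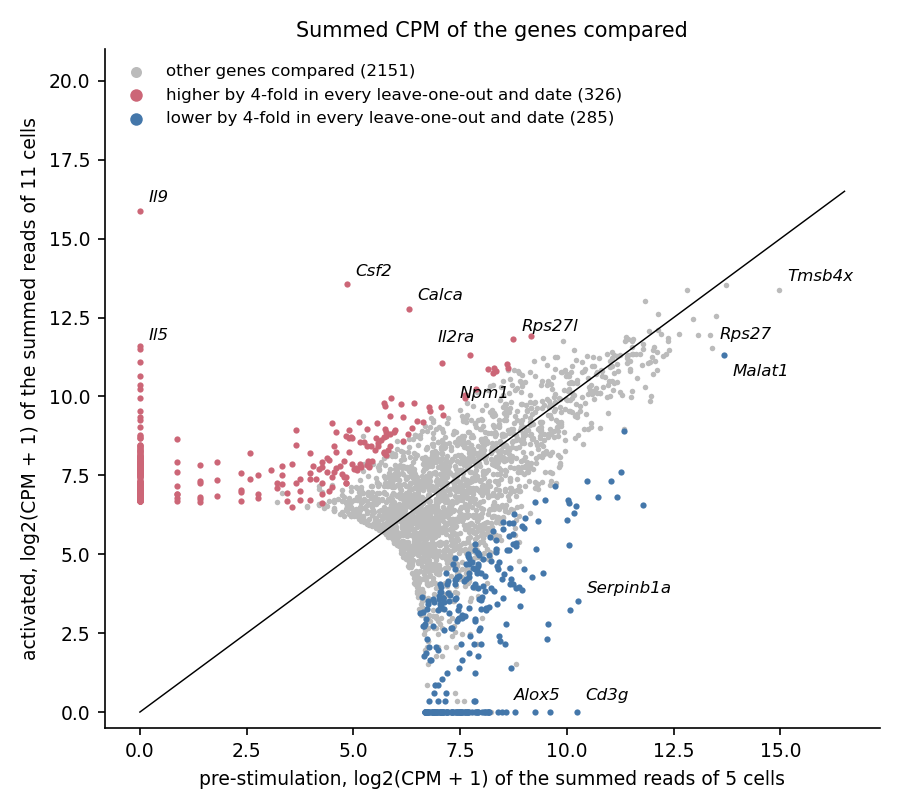
Summed CPM of 2762 genes in pre-stimulation cells (x axis) and activated cells (y axis), both as log2(CPM + 1), with 1 point per gene and the line of equal levels. Genes at least 4-fold apart in the sums, in each title date and on leaving out any 1 cell are coloured (326 higher, 285 lower). The column of points at 0 on the x axis holds genes with no read in the 5 pre-stimulation cells, among them Il9 and Il5, and the row at 0 on the y axis holds genes with no read in the 11 activated cells, among them Alox5 and Cd3g.

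Cytokine genes were higher in activated cells. Of 31 secreted cytokine genes, 9 were compared, 7 (77.8%) were higher and none was lower, against 14.6% and 22.4% of all genes, with a median log2 ratio of 8.65. Their summed level was 22.5 to 584 CPM in pre-stimulation cells and 1574 to 235640 CPM in activated cells, so the groups did not overlap. Together with 18 chemokine genes they took 0.246% to 23.6% of a cell's gene reads after activation (median 5.37%), and at most 0.0584% before.

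Il5, the indexed cytokine, had 0 reads in all 5 pre-stimulation cells. In activated cells its level ran from 63.9 to 11295 CPM with a median of 1332, and the lowest cell held 21 reads. All 11 activated cells lay above the pre-stimulation cells, and the summed level of 2929 CPM was at least 1183-fold higher. Without activated cell 7, which held the highest level, the floored log2 ratio went from 10.21 to 9.56, and with the pre-stimulation cells of both indexes it was 8.11. Il5 was not the most abundant cytokine mRNA in most of these cells. Among Il5, Il13, Il9, Il6, Csf2, Il4, Il3 and Il2, Csf2 was highest in 5 activated cells, Il9 in 4 and Il5 in 2.

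Il13 had 0 reads in all 5 pre-stimulation cells and ran from 6.09 to 4186 CPM in activated cells, with a median of 528 CPM. Its lowest activated cell held 2 reads. The groups did not overlap, and the summed level of 991 CPM was at least 400.5-fold higher.

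Il9, which encodes a growth factor of mast cells and of ILC2 themselves, was the most abundant cytokine gene in the sums. It had 0 reads in all pre-stimulation cells and 27.4 to 229067 CPM in activated cells (median 580 CPM). The groups did not overlap, and its summed level of 60451 CPM was at least 24426-fold higher. This sum rested on 3 cells of the second date, cells 6, 7 and 9, with 229067, 171144 and 124247 CPM. The floored log2 ratio was 11.31 with the first date alone, 15.31 with the second, and 13.85 without cell 6.

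Csf2, which encodes the growth factor GM-CSF, had 128 CPM in pre-stimulation cell 3 and 0 reads in the other four. In activated cells it ran from 80.2 to 44584 CPM with a median of 2696. Activated cells 7 and 9 lay below pre-stimulation cell 3, so the groups overlapped. The summed level was 431-fold higher (log2 ratio 8.75, counting interval 8.27 to 9.28), and 11.90 without pre-stimulation cell 3.

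Il6, which encodes a cytokine of the acute phase response, had 0 reads before stimulation and 4.78 to 11368 CPM in activated cells (median 518 CPM). Its lowest cell held 2 reads, and the summed level of 3080 CPM was at least 1245-fold higher. Ccl1, which encodes a chemokine that binds CCR8, had 0 reads before stimulation and 9.35 to 16805 CPM after it (median 884 CPM), at least 889-fold higher in the sums. Activated cell 11 held the highest Ccl1 level, and without it the floored log2 ratio went from 9.80 to 8.32.

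Il5, Il13, Il9, Il6 and Csf2 were read in all 11 activated cells, which differed in the most abundant of them. Csf2 and Il6 were both high in cells 4, 5 and 8, with Csf2 at 37746, 44584 and 34649 CPM and Il6 at 7278, 11368 and 10026 CPM. The cells with the most Il9, cells 6, 7 and 9, had 4248, 103 and 80.2 CPM of Csf2. In cell 3, the 8 cytokine genes together took 0.138% of gene reads, and in cell 6 they took 23.5%. Among 711 genes compared that were read in every activated cell, the median SD of log2(CPM + 1) was 0.868, and Il9 had the largest SD at 4.60, followed by Calca at 3.55, Ccl1 at 3.51, Il6 at 3.42 and Csf2 at 3.38. Calca encodes the neuropeptide CGRP and was named after its values were seen. It had 307 CPM in pre-stimulation cell 2, 3.78 CPM in cell 3 and 0 in the others, and 13.4 to 29770 CPM in activated cells (median 2131 CPM). Calca overlapped between the groups, with a log2 ratio of 6.49 (interval 6.20 to 6.80) that went to 11.05 without pre-stimulation cell 2.

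Other cytokine genes were at similar or low levels in both groups or came from few cells. Il4, the neighbour of Il13 on the chromosome, had 0, 3.26, 7.55, 126 and 565 CPM in the 5 pre-stimulation cells and 0 to 502 CPM in activated cells (median 130 CPM). The groups overlapped, and the log2 ratio of 0.34 went to 2.07 without pre-stimulation cell 5. Il3 was read in 2 activated cells, up to 524 CPM in cell 4, and in no pre-stimulation cell, and without cell 4 both groups were under the floor. Il2 had 6 reads before and 2 reads after stimulation. Areg, which encodes the tissue repair factor amphiregulin, had 0 reads in all 16 cells, which allows up to 0.804 CPM in activated and 2.47 CPM in pre-stimulation cells. Cxcl2 was read in 3 activated cells, up to 4733 CPM in cell 5, and without that cell its floored log2 ratio went from 7.73 to 2.96. Penk, which encodes proenkephalin and was named after its values were seen, had 0 reads before stimulation and was read in 5 activated cells, up to 2878 CPM. Its floored log2 ratio of 7.14 went to 6.24 without activated cell 2 and to 6.27 without activated cell 11.

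**Figure D2:**
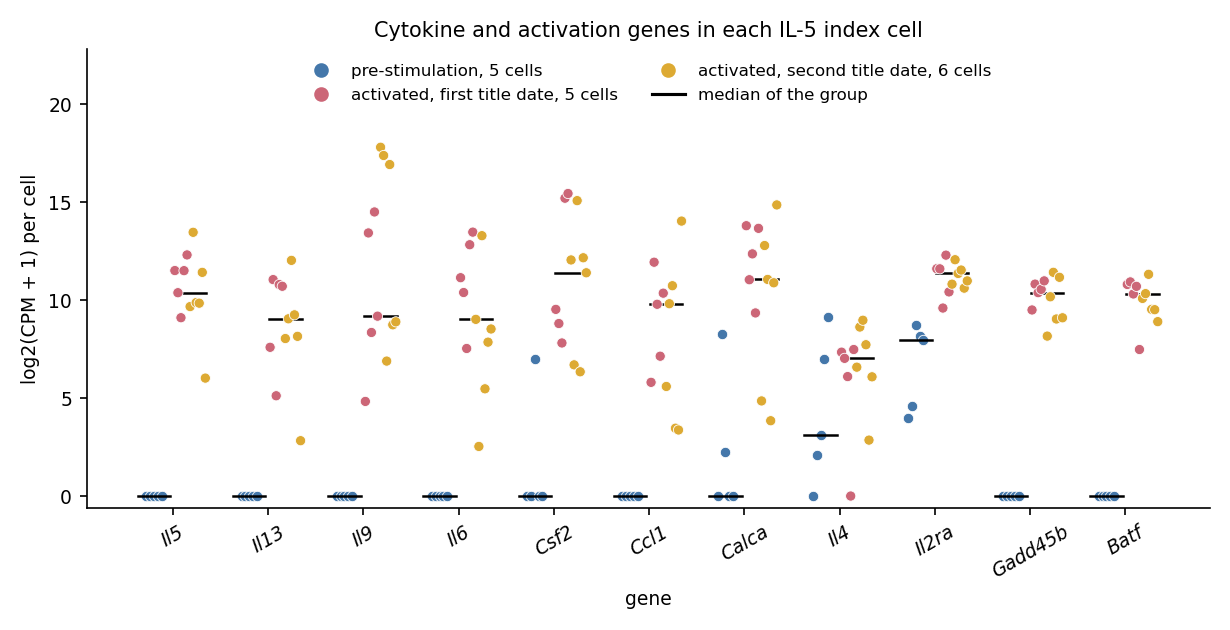
Level of 11 genes in each cell, as log2(CPM + 1) on the y axis, with 1 point per cell, pre-stimulation cells on the left and activated cells on the right of each gene, and a bar at each group's median. Il5, Il13, Il9, Il6, Ccl1, Gadd45b and Batf lay at 0 in all 5 pre-stimulation cells. Il9 spread from 27.4 to 229067 CPM between activated cells, while Il2ra spread from 773 to 5034 CPM.

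Among genes of the pathways downstream of IL-33 and IL-2, 3 of 11 NF-kB subunit and feedback genes compared (27.3%) were higher and none lower, beside 14.6% and 22.4% of all genes, with a median log2 ratio of 1.13. Nfkbia, which encodes the NF-kB inhibitor IkBa, had 195, 300, 185, 0 and 359 CPM before stimulation and 401 to 3034 CPM after it (median 778 CPM). No activated cell fell as low as any pre-stimulation cell, and the level was 5.24-fold higher (log2 ratio 2.39, counting interval 2.20 to 2.58), or 1.99 without pre-stimulation cell 4. Nfkbib and Rel, a second inhibitor and an NF-kB subunit, each had 0 reads before stimulation and were read in 9 of 11 activated cells, at least 80.4-fold and at least 45.8-fold higher. Nfkb1, the p50 precursor, had a log2 ratio of 1.49, short of 4-fold, or 2.01 with TMM scaling and 2.24 without pre-stimulation cell 1.

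Batf, which encodes an AP-1 family partner of IRF4, had 0 reads in all pre-stimulation cells and 178 to 2553 CPM in activated cells (median 1274 CPM). The groups did not overlap, and Batf was at least 485-fold higher. Batf had 122 CPM in the resting cells of the IL-13 index, and with the pre-stimulation cells of both indexes its floored log2 ratio of 8.92 went to 4.47. Irf4 itself had 0 reads before stimulation, was read in 10 activated cells and was at least 127-fold higher. Of 6 AP-1 and immediate early genes compared, 1 (16.7%), Batf, was higher and 1 (16.7%), Mafg, was lower, beside 14.6% and 22.4% of all genes, and the median log2 ratio was 0.34. The log2 ratio of Mafg, -2.75, went to -1.76 without pre-stimulation cell 2 and to -1.91 with the pre-stimulation cells of both indexes, both short of 4-fold. Mir155hg, the host transcript of miR-155, had 0 reads before stimulation and was read in 9 activated cells, at least 59.5-fold higher, and without activated cell 10 its floored log2 ratio went from 5.90 to 5.05. Myc, the growth regulator, had 22.5, 258, 0, 0 and 210 CPM before and 9.21 to 928 CPM after stimulation, with overlapping groups and a log2 ratio of 1.64, or 2.16 with TMM scaling and 2.62 without pre-stimulation cell 2.

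Il2ra, the high-affinity chain of the IL-2 receptor, had 15, 22.8, 419, 290 and 247 CPM in the pre-stimulation cells and 773 to 5034 CPM in the activated cells (median 2633 CPM). All activated cells lay above all pre-stimulation cells, and the level was 12.1-fold higher (log2 ratio 3.59, counting interval 3.41 to 3.78), at 3.59 in either date. The shared chain gene Il2rg had a log2 ratio of 0.28 (interval 0.19 to 0.37). Stat5a, the transducer of IL-2 signals, had 0 reads before stimulation and 124 to 580 CPM after it (median 354 CPM), at least 136-fold higher and without overlap. The kinase gene Pim2 had 0 reads before stimulation and was read in 10 activated cells, at least 76.3-fold higher. In all, 3 (27.3%) of 11 IL-2 and STAT pathway genes compared were higher and 1 (9.09%) was lower, beside 14.6% and 22.4% of all genes.

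Genes of ILC2 identity mostly differed by less than 4-fold. Gata3, the defining transcription factor of the lineage, had 1402, 3741, 329, 1177 and 1671 CPM before stimulation and 17.9 to 907 CPM after it (median 631 CPM). The groups overlapped through pre-stimulation cell 3, and the log2 ratio of -1.79 (interval -1.88 to -1.70) went to -1.09 without pre-stimulation cell 2. Il1rl1 had 1567, 1960, 1631, 904 and 1587 CPM before and 152 to 1346 CPM after stimulation (median 374 CPM), a log2 ratio of -1.54 (interval -1.63 to -1.44). Activated cell 7 exceeded pre-stimulation cell 4, so the groups overlapped. Rora, another lineage factor, had a log2 ratio of 1.64, or 2.16 with TMM scaling and 2.60 without pre-stimulation cell 4. Id2, the factor shared by innate lymphoid cells, had a log2 ratio of 0.10. Of 8 lineage transcription factors compared, none was higher and 1 (12.5%) was lower, beside 14.6% and 22.4% of all genes. Of 9 receptors for cytokines and alarmins, none was higher and 3 (33.3%) were lower, beside 22.4% of all genes. The median log2 ratio was -1.15, or -0.30 with TMM scaling over the changed set of genes then compared.

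Of 13 costimulatory and surface receptor genes compared, 4 (30.8%) were higher and 4 (30.8%) were lower, beside 14.6% and 22.4% of all genes. The costimulatory receptor gene Tnfrsf9 (4-1BB) had 119 CPM in pre-stimulation cell 4 and 0 reads in the other four, and 3.18 to 1306 CPM in activated cells, with a log2 ratio of 4.09 (interval 3.61 to 4.61) and of 7.23 without that cell. Cd44, an adhesion receptor of activated lymphocytes, had a log2 ratio of 5.91 (interval 4.78 to 7.36), from 22.7 CPM in 1 pre-stimulation cell and 3.34 to 940 CPM in activated cells, or 6.55 without pre-stimulation cell 3 and 4.43 with the pre-stimulation cells of both indexes. Cd81, a tetraspanin of the lymphocyte surface, was 5.19-fold higher (log2 ratio 2.38, interval 2.20 to 2.55), with 195, 391, 3.78, 113 and 476 CPM before and 348 to 2428 CPM after stimulation. All 3 genes overlapped between the groups. Klrg1, an inhibitory receptor of mature ILC2, had 7.50, 1275, 170, 982 and 654 CPM before and 0 to 508 CPM after stimulation, with a log2 ratio of -2.78 (interval -2.96 to -2.60), or -3.44 without activated cell 10. Ptprc (CD45) was also lower, with 82.5 to 1167 CPM before and 0 to 137 CPM after stimulation and a log2 ratio of -4.15 (interval -4.43 to -3.88). Both overlapped between the groups. Cd200r1, an inhibitory receptor, was 20.2-fold lower, and its log2 ratio of -4.34 went to -5.16 without activated cell 3. The integrin gene Itgb7 was 11.3-fold lower, and its log2 ratio of -3.50 went to -2.71 without pre-stimulation cell 1, to -4.39 without activated cell 4 and to -4.34 without activated cell 10.

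The genes that were lower in activated cells included a group of growth-restraining factors. Of 12 quiescence and Kruppel-like genes compared, 9 (75.0%) were lower and none was higher, against 22.4% and 14.6% of all genes. The median log2 ratio was -5.63, or -4.20 with TMM scaling over the changed set of genes then compared. The summed level of the list was 3383 to 4684 CPM in pre-stimulation cells and 282 to 1222 CPM in activated cells, without overlap. Zfp36l2, which encodes a protein that promotes mRNA decay, had 982, 812, 449, 0 and 4.67 CPM before stimulation and was read in 1 activated cell. It was 257-fold lower, with a counting interval of -9.46 to -6.87 on the log2 scale, and had a log2 ratio of -8.83 without activated cell 7. Klf13, a Kruppel-like factor, had 172, 444, 0, 358 and 896 CPM before stimulation, was read in 1 activated cell and was 108-fold lower, and its log2 ratio of -6.75 went to -8.75 without activated cell 9. Slfn2, linked to T cell quiescence, was 10.8-fold lower, and the antiproliferative gene Btg1 had a log2 ratio of -1.23, short of 4-fold.

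Some genes of lipid mediators were among the large differences. Of 9 lipid mediator and Tph1 genes compared, 2 (22.2%) were higher and 2 (22.2%) were lower, beside 14.6% and 22.4% of all genes. Their median log2 ratio was 0.14. Lpcat2 and Ptgir, given below, are not in that list. Alox5, which encodes 5-lipoxygenase, the first enzyme of leukotriene synthesis, had 142, 665, 310, 849 and 840 CPM in the pre-stimulation cells and 0 reads in all 11 activated cells. It was at least 753-fold lower, without overlap. Lpcat2, an enzyme of platelet-activating factor synthesis, had 577, 564, 374, 181 and 140 CPM before stimulation and 0 reads in activated cells, at least 443-fold lower. Ptgir, the prostacyclin receptor gene, was read in 4 pre-stimulation cells and with 1 read in activated cells, a floored log2 ratio of -8.13, or -9.72 taken from the 1 read (counting interval -15.02 to -7.22). Tph1, the serotonin synthesis enzyme of ILC2, differed in the other direction. It had 0 reads before stimulation and was read in 5 activated cells, up to 4361 CPM in cell 2, without which the floored log2 ratio went from 7.95 to 7.23.

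Among the other large differences, 5 more genes had 0 reads in all activated cells. Itgb3, an integrin chain, had 157, 179, 506, 259 and 4.67 CPM before stimulation and did not overlap with activated cells, at least 295-fold lower. Ddit3, a transcription factor of the stress response, was at least 328-fold lower, Castor1, an arginine sensor of the mTORC1 pathway, at least 299.7-fold lower, Oxct1, an enzyme of ketone body use, at least 242-fold lower and Man2a2, a Golgi mannosidase, at least 211-fold lower. Each of these 4 had 0 reads in 1 of the 5 pre-stimulation cells and so met the activated cells at 0. Lztfl1 had 1837, 740, 1103, 54.6 and 574 CPM before stimulation and was read in activated cell 8 only, at 47.6 CPM, 185-fold lower without overlap, and without that cell its log2 ratio went from -7.53 to -9.73.

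Serpinb1a, an inhibitor of neutrophil-type serine proteases, had 2189, 652, 857, 2210 and 598 CPM before stimulation and was read in 2 activated cells, up to 111 CPM. The groups did not overlap, and Serpinb1a was 118-fold lower (log2 ratio -6.88, counting interval -7.38 to -6.42), or -9.72 without activated cell 4. Cst7, the cystatin of cytotoxic and innate lymphocytes, was 130-fold lower and was read in activated cell 8 only, and without that cell its log2 ratio went from -7.02 to -10.26. Of 8 such inhibitor and granule genes compared, 4 (50.0%) were lower and none was higher, beside 22.4% and 14.6% of all genes.

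Survival genes differed in both directions. Bcl2, the anti-apoptotic gene of resting lymphocytes, had 217, 874, 808, 1729 and 1036 CPM before stimulation and was read in 3 activated cells, up to 526.5 CPM in cell 11, which overlapped pre-stimulation cell 1. It was 15.3-fold lower (log2 ratio -3.93, counting interval -4.13 to -3.74), with -9.08 in the first date, -3.14 in the second and -5.50 without activated cell 11. Bcl2a1d, a member of the same family, had 0 reads before stimulation and was read in 9 activated cells, at least 109-fold higher. The Bcl2a1 genes are near-identical copies, so the split of reads between them is uncertain. Gadd45b, a stress-response gene induced by NF-kB, had 0 reads before stimulation and 286 to 2741 CPM after it (median 1335 CPM), at least 530.4-fold higher without overlap. Pdzk1ip1, which encodes a small membrane protein, had 0 reads before stimulation and was read in 9 activated cells, up to 5676 CPM (median 551 CPM), at least 643-fold higher.

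**Figure D3:**
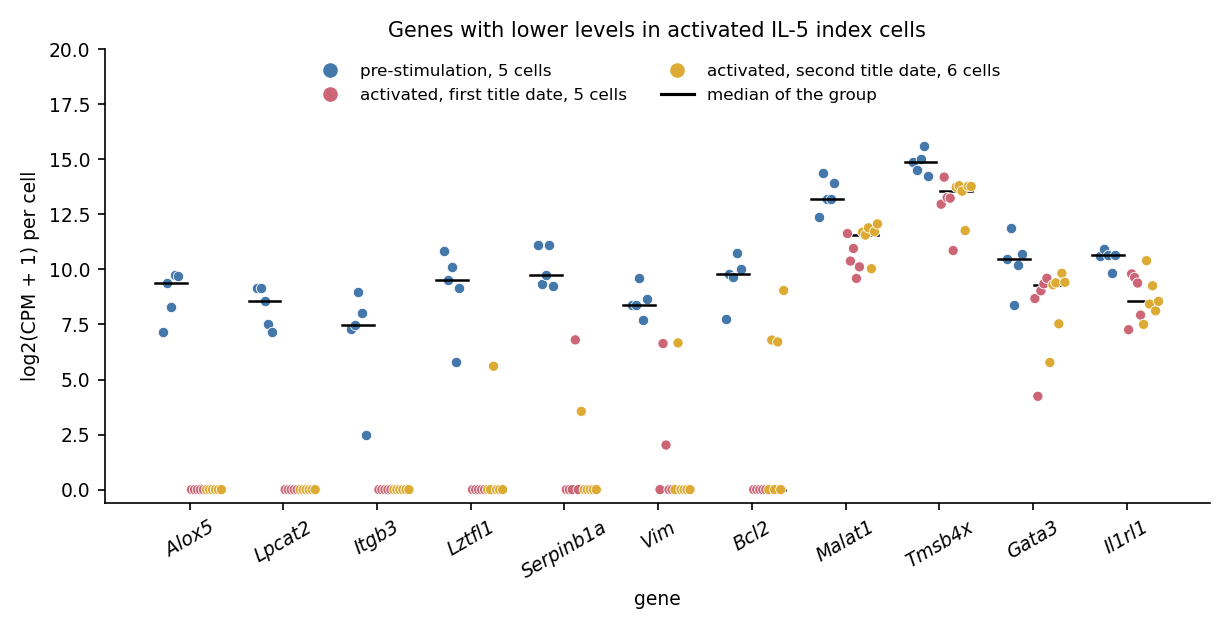
Level of 11 genes in each cell, as log2(CPM + 1) on the y axis, with 1 point per cell, pre-stimulation cells on the left and activated cells on the right of each gene, and a bar at each group's median. Alox5, Lpcat2 and Itgb3 lay at 0 in all 11 activated cells, and Malat1, from 771 to 4294 CPM, lay below the lowest pre-stimulation cell at 5383 CPM. Gata3 and Il1rl1 stayed above 0 in all 16 cells.

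Ribosome biogenesis genes were mostly higher. Of 31 ribosome biogenesis genes compared, 23 were higher and none was lower, against 14.6% and 22.4% of all genes, and 8 lay above all pre-stimulation cells in every activated cell, which 2.53% of all genes did. Their median log2 ratio was 3.12, or 3.76 with TMM scaling over the changed set of genes then compared. The summed level of the list was 1752 to 3473 CPM before and 10165 to 20057 CPM after stimulation, without overlap. Npm1 (nucleophosmin) had 292, 267, 155, 167 and 626 CPM before stimulation and 1039 to 2829 CPM after it (median 1618 CPM). It was 6.54-fold higher (log2 ratio 2.71, counting interval 2.55 to 2.87) and did not overlap. Nop16 and Ebna1bp2, which act in assembly of the large subunit, had 0 reads before stimulation and were at least 144-fold and at least 261-fold higher. With the pre-stimulation cells of both indexes the log2 ratio of Ebna1bp2 was 5.93 in place of 8.03. Nhp2, a protein of H/ACA particles that modify RNA, was 5.46-fold higher, and its log2 ratio of 2.45 went to 3.60 without pre-stimulation cell 5. Ran, the GTPase of nuclear transport, had 0, 398, 400.3, 191 and 430 CPM before and 1033 to 3049 CPM after stimulation (median 1844 CPM), without overlap and 6.12-fold higher (log2 ratio 2.61, interval 2.46 to 2.77).

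Mrpl17 and Mrpl54, of the mitochondrial ribosome, had 0 reads before stimulation and were at least 178-fold and at least 173-fold higher. With the pre-stimulation cells of both indexes the log2 ratio of Mrpl54 was 3.91 in place of 7.44. Of 37 translation factors compared, 9 (24.3%) were higher and none was lower, beside 14.6% and 22.4% of all genes, and 4 were higher in each date and on leaving out any cell. Eif4ebp1, an inhibitor of cap-dependent translation, was read in 1 pre-stimulation cell at 264 CPM and in all activated cells at 3.04 to 2630 CPM, with a log2 ratio of 4.11 (interval 3.77 to 4.47) and of 8.30 without that cell. The 81 cytosolic ribosomal protein genes compared had a median log2 ratio of -0.23, or 0.30 with TMM scaling, and 2 of them (2.47%) were higher and none was lower, set against the same shares. Many of these genes have near-identical pseudogenes, so the assignment of their reads is uncertain. Rps27 lay below all pre-stimulation cells in all activated cells, with 9290 to 13800 CPM before and 1500 to 4613 CPM after stimulation, a log2 ratio of -1.84. Its paralogue Rps27l lay above them, with 442, 535, 819, 269 and 4.67 CPM before and 1293 to 5480 CPM after stimulation, a log2 ratio of 3.06 (interval 2.94 to 3.19).

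Of 30 chaperones compared, 11 (36.7%) were higher and none was lower, beside 14.6% and 22.4% of all genes, with a median log2 ratio of 1.62 and summed levels of 4452 to 10212 CPM before and 10425 to 26806 CPM after stimulation. Hspa9, the HSP70 of mitochondria, had 0 reads before stimulation and 2.50 to 492 CPM after it, at least 108-fold higher. Hspa8, the constitutive cytosolic HSP70, had a log2 ratio of 1.48 (interval 1.39 to 1.58), short of 4-fold. Of 36 proteasome genes, 9 (25.0%) were higher and 1 (2.78%) was lower, set against the same shares, with summed levels of 5887 to 11336 CPM before and 16857 to 26087 CPM after stimulation, without overlap. Psmc1, an ATPase subunit, had 1 read before stimulation and 125 to 718 CPM in activated cells, a floored log2 ratio of 7.33, or 8.91 taken from the 1 read (counting interval 6.43 to 14.22). Dnajc2, a chaperone at the ribosome, had 0 reads before stimulation and was at least 91.2-fold higher. Both were read in pre-stimulation cells of the IL-13 index, and with the pre-stimulation cells of both indexes the log2 ratios were 2.74 and 2.90.

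Of 52 genes of translocation and folding in the endoplasmic reticulum, 12 (23.1%) were higher and 1, Ddit3, was lower, with a median log2 ratio of 0.68, and of 23 vesicle coat and SNARE genes, 7 (30.4%) were higher and 3 (13.0%) lower, with 5 and 1 in each date and on leaving out any cell. Of all genes, 14.6% were higher and 22.4% lower. Sec61g, a subunit of the translocation channel, had a log2 ratio of 0.00 (interval -0.07 to 0.07). Kdelr2, a receptor that returns proteins to the endoplasmic reticulum, was 27.0-fold higher (log2 ratio 4.76, counting interval 3.82 to 5.89), or 5.99 without pre-stimulation cell 3.

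Of 12 amino acid uptake and one-carbon genes compared, 7 (58.3%) were higher and 1 (8.33%) was lower, beside 14.6% and 22.4% of all genes. The median log2 ratio was 2.96, or 3.66 with TMM scaling over the changed set of genes then compared. Summed levels of the list were 750 to 1020 CPM before and 1853 to 5427 CPM after stimulation, without overlap. Srm, the spermidine synthase, had 88.7 CPM in pre-stimulation cell 4 and 0 in the other four, and 257 to 1096 CPM in activated cells. It did not overlap and was 26.4-fold higher (log2 ratio 4.72, counting interval 4.17 to 5.34), or 7.44 without pre-stimulation cell 4. Mthfd2, of mitochondrial one-carbon metabolism, had 0 reads before stimulation and was at least 94.5-fold higher, with a log2 ratio of 4.74 in place of 6.56 when the pre-stimulation cells of both indexes were used.

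Of 14 genes of glycolysis and the pentose phosphate route, 5 (35.7%) were higher and 1 (7.14%) was lower, beside 14.6% and 22.4% of all genes. Tpi1 had 0 reads before stimulation and 27.4 to 1945 CPM after it, at least 301-fold higher, or 3.95 on the log2 scale with the pre-stimulation cells of both indexes. Gapdh had a log2 ratio of 1.45 (interval 1.31 to 1.60), short of 4-fold. Of 9 genes of cholesterol and fatty acid synthesis, 5 (55.6%) were higher and 1 (11.1%) was lower, with 3 and none in each date and on leaving out any cell. Cyp51, a demethylase of the cholesterol route, had 0 reads before stimulation and was at least 89.3-fold higher, and Idi1, an isomerase of the same route, was 16.2-fold higher, with a log2 ratio of 4.02 that went to 5.54 without pre-stimulation cell 3 and to 3.20 with the pre-stimulation cells of both indexes.

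Actin cytoskeleton genes and the nuclear RNA Malat1 are given next. Of 31 actin cytoskeleton genes compared, 6 (19.4%) were lower, near the 22.4% of all genes, and none was higher, with a median log2 ratio of -0.99, or -0.47 with TMM scaling, and their summed level was 43188 to 90798 CPM before and 11681 to 35346 CPM after stimulation. Tmsb4x, an actin-sequestering peptide and the most abundant of them, had 19524 to 50136 CPM before and 1855 to 18736 CPM after stimulation, without overlap and with a log2 ratio of -1.57 (interval -1.59 to -1.55). Vim (vimentin) was 23.6-fold lower and did not overlap, with 208 to 770 CPM before and 0 to 100.4 CPM after stimulation, and its log2 ratio of -4.56 went to -5.89 without activated cell 7. Malat1, a nuclear long non-coding RNA, had 5383, 21256, 9520, 9389 and 15668 CPM before and 771 to 4294 CPM after stimulation (median 3022 CPM). It did not overlap and was 5.16-fold lower (log2 ratio -2.37, counting interval -2.41 to -2.33), and -1.84 with TMM scaling, short of 4-fold.

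Of 8 T cell receptor and CD3 genes compared, 4 (50.0%) were lower and none was higher, beside 22.4% and 14.6% of all genes. Cd3g, a CD3 chain, had 3643 CPM in pre-stimulation cell 2, 1254 CPM in cell 3, and 0 reads in the other 3 and in all activated cells. Its floored log2 ratio of -10.54 went to -8.83 without pre-stimulation cell 2. Trbc2, a T cell receptor constant gene, was read in 4 pre-stimulation cells (280 to 1835 CPM) and 10 activated cells (up to 892 CPM), with a log2 ratio of -0.95, or 0.43 without pre-stimulation cell 3. Summed over 10 T cell markers, pre-stimulation cells had 280 to 3643 CPM and activated cells 0 to 892 CPM. Cd3d, Cd3e, Cd4, Cd8a and Trac were at 0 reads in both groups. The B cell marker Ighm had 235 CPM before and 21.4 CPM after stimulation. The mast cell and basophil marker Fcer1a had 37.1 CPM before and 233 CPM after it. The latter came from 2 activated cells, with 2093 CPM in cell 8 and 454 CPM in cell 6. The macrophage marker Adgre1 was read in activated cell 8 only, at 454 CPM. Erythroid markers summed to 133 CPM in pre-stimulation cell 4. The part of cells of other types in the results was not tested.

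The median of the remaining lists lay within 1 log2 unit of 0 except for 5 lists with 2 to 6 members compared, and with TMM scaling G1 and Myc genes also passed 1, at 1.21. Both chemokine genes compared, of 18 listed, were higher, with a median of 8.76. The listed chemokine genes had 0 reads in every pre-stimulation cell. Any that met the minimum of 50 CPM therefore had to be higher. Of 4 MAPK and PI3K feedback genes, 3 were lower, with a median of -5.37, but 1 of these was lower in each date and on leaving out any cell. Of 6 BCL2 family and death genes, 3 were higher and 2 lower, or 2 and 1 in each date and on leaving out any cell. Their median of 2.45 became 4.04 with TMM scaling, over the changed set of genes then compared. Of 2 interferon regulatory factors and targets, 1 was higher and 1 lower (median 1.96), and the lower one was not past 4-fold in each of these settings. Of 5 nuclear long non-coding RNAs, 2 were higher and 2 lower, and the median of -1.41 went to -0.88 with TMM scaling. Of all genes, 14.6% were higher and 22.4% lower. Genes of oxidative phosphorylation encoded in the nucleus had a median log2 ratio of 0.14 over 75 genes, and S and G2/M phase genes one of 0.23 over 9 genes. The median of 7 MHC genes was -0.18, or 0.34 with TMM scaling.

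**Figure D4:**
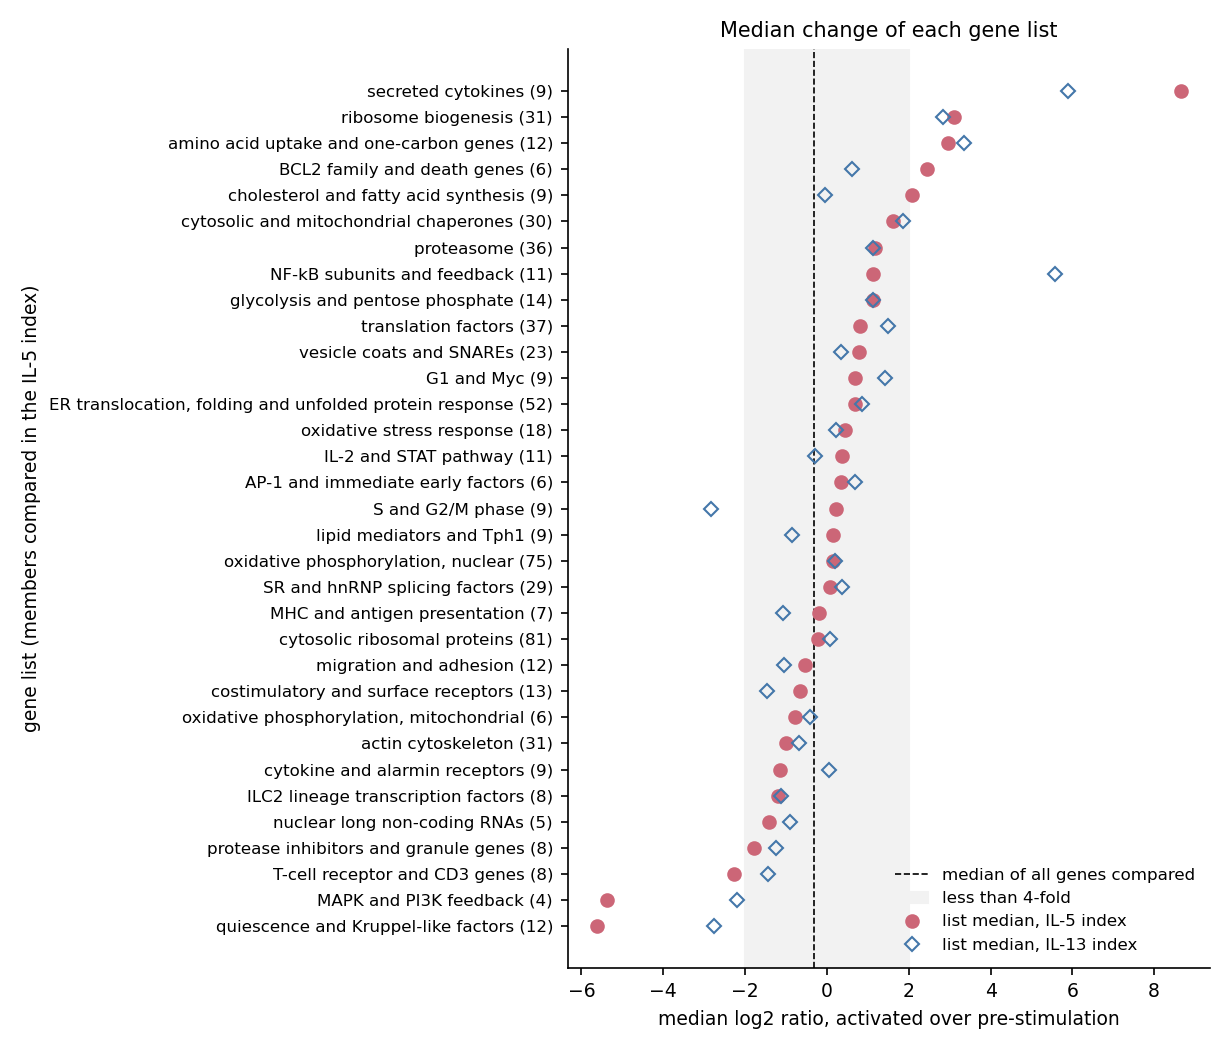
Median log2 ratio of activated over pre-stimulation cells for each gene list with at least 4 members compared, in the IL-5 index (filled circles) and the IL-13 index (open diamonds), with the median of all IL-5 index genes compared (dashed line, -0.32) and the range under 4-fold shaded. Secreted cytokines (8.65) and ribosome biogenesis (3.12) lay highest in the IL-5 index, and quiescence and Kruppel-like factors (-5.63) lowest.

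The median over genes of the SD of log2(CPM + 1) was 2.84 between activated cells and 3.72 between pre-stimulation cells. The groups differ in the number of cells, depth and genes detected, and genes read mainly in 1 cell of a group enter both medians, so no difference in spread is read from them. Some genes varied little between activated cells although no resting cell carried a read, such as Mrpl17 with 162 to 1167 CPM and Stat5a with 124 to 580 CPM.

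The same contrast in the IL-13 index, with 11 activated and 5 pre-stimulation cells that are different cells from those above, gave values to set beside these. In that index, 16.1% of 2641 genes compared were higher and 20.5% lower, 11.3% and 9.13% in each date and on leaving out any cell, and cells did not overlap for 0.719% (above) and 0.682% (below). Over 1956 genes compared in both indexes, Pearson's r of the log2 ratios was 0.59, a description across genes, which are not replicates. It was 0.40 over 4431 genes with at least 10 CPM and 0.79 over 667 genes with at least 200 CPM. Among genes compared in both, 361 were higher in the IL-5 index and 337 in the IL-13 index, and 146 were shared, 40.4% of the first and 43.3% of the second, where 17.2% of all these genes were higher in the IL-13 index. Of 241 lower genes in the IL-5 index and 244 in the IL-13 index, 133 were shared, 55.2% and 54.5%, where 12.5% of all these genes were lower in the IL-13 index. Of the genes higher in the IL-5 index, 9 were lower in the IL-13 index, and of those lower, 15 were higher.

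In the IL-13 index, Il9 had a log2 ratio of 13.80, Csf2 of 12.05, Ccl1 of 11.15, Il6 of 9.67, Il13 of 8.63 and Il5 of 5.02. Il5 had 23.8 CPM in the summed pre-stimulation cells of that index, against 0 reads in those of the IL-5 index. Alox5 had a log2 ratio of -5.66 there, Serpinb1a of -10.52 and Bcl2 of -3.04. Other genes stood apart between the indexes. Il1rl1 had a log2 ratio of 0.05 in the IL-13 index, Malat1 of -0.32, Zfp36l2 of -1.26 and Id2 of -2.13, and Areg, at 0 reads in both groups of the IL-5 index, was read there in activated cells at 52.3 CPM. The differences between indexes were not tested.

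**Figure D5:**
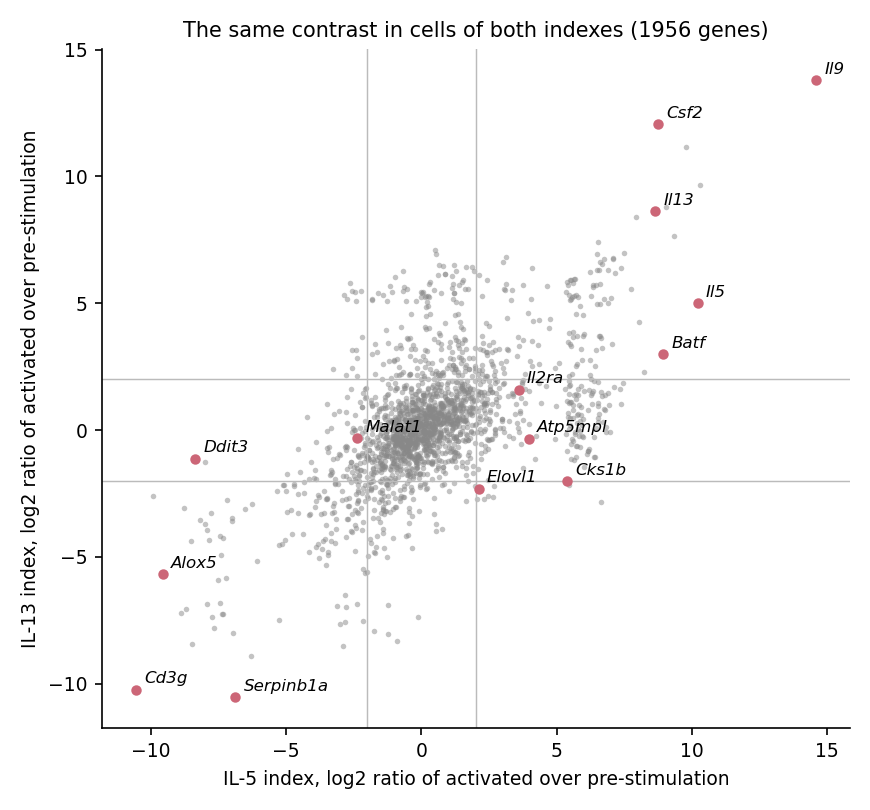
Log2 ratio of activated over pre-stimulation cells in the IL-5 index (x axis) and the IL-13 index (y axis) for 1956 genes compared in both, with 1 point per gene and lines at 4-fold. Il9, Csf2, Il13 and Il5 lie at the upper right, Alox5, Cd3g and Serpinb1a at the lower left, and Cks1b and Elovl1 on opposite sides of 0 in the 2 indexes.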

How the data were processed

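The members, gene lists and naming rule used here were chosen with earlier results of these data known. Single-cell cDNA was made with a 3′ kit (SMART-Seq v4 3′ DE), and the authors deposited raw read counts per Ensembl gene for each cell, made with TopHat2 and HTSeq per the labels and the study's methods. The submitters' processing notes list mm10 and GRCh38 as builds, and the strand setting and annotation release are not given in the sources used here. The 5 HTSeq summary rows were left out of totals, and spike-in counts were not used here. Deposited counts were summed per group and scaled to CPM, counts per 1000000 gene reads. No test was run, because each library is 1 cell. Intervals were exact 95% Clopper-Pearson limits of the split of reads. Named genes were 15 fixed genes, the 12 largest differences in each direction among genes read in at least 70% of the cells of the higher group with at most 50% of its reads from 1 cell, and, per list, up to 2 genes by level, by higher and by lower ratio. Calca and Penk were added after their values were seen, and Rora, Klrg1 and Ptprc from the marker list. Scripts used Python 3.11.15, pandas 2.3.3 and scipy 1.17.1, took scaling factors alone from edgeR 4.0.16 and DESeq2 1.42.0, and were tested on simulated data. Promoter sequences were RefSeq windows.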

Additional observations from a re-analysis of the deposited data

Results flagged for a closer look

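Of 65 values tested over the 5 pre-stimulation cells (gene levels as log2(CPM + 1), and library measures), 20, all gene levels, had 1 cell far from the other 4, and the 11 activated cells were too many for this rule. Pre-stimulation cell 3 was highest for Csf2 (128 CPM), Cd44 (22.7 CPM), Eif4ebp1 (264 CPM), Psmc1 (3.78 CPM, 1 read), Idi1 (41.5 CPM), Kdelr2 (34.0 CPM) and Elovl1 (242 CPM), and each of these genes had 0 reads in the other pre-stimulation cells. For these genes and for Tnfrsf9 and Srm, 9 in all, a read in only 1 cell sets the flag by itself. For the others the cut would flag about 1 in 20 by chance only if levels were normally distributed. Levels with 0 or few reads are not, so the chance rate here is not known. A lone cell with 0 reads set the flag for Klf13, Castor1, Nfkbia, Trbc2, Slfn2 and Ran. Pre-stimulation cell 3 was lowest for Klf13 and Castor1, both at 0 CPM. Pre-stimulation cell 4 was highest for Tnfrsf9 (119 CPM) and Srm (88.7 CPM), and lowest for Nfkbia (0 CPM) and Il1rl1 (904 CPM). Pre-stimulation cell 2 was highest for Calca (307 CPM) and lowest for Trbc2 (0 CPM). Pre-stimulation cell 1 was lowest for Slfn2 (0 CPM), Ran (0 CPM) and Sec61g (7.50 CPM), and cell 5 was lowest for Rps27l (4.67 CPM) and Itgb3 (4.67 CPM).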

How the results depend on the processing

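No paired analysis was possible because the results come from no test and the primer numbers in the titles do not pair cells. The 403 higher and 619 lower genes became 616 and 395 with TMM scaling, 609 and 398 with DESeq2 size factors, 706 and 987 at 2-fold, 1683 and 1439 at a minimum of 10 CPM, 100 and 89 at 200 CPM, and 2456 and 1738 with no filter, and at 8-fold 390 were lower. Leaving out each cell gave 395 to 495 higher and 602 to 716 lower. Non-overlapping genes, 70 above and 33 below, became 181 and 62 with the first date only, and 21 and 6 with the pre-stimulation cells of both indexes. At 200 CPM 40 lay above. Leaving out each cell gave 70 to 104 above and 33 to 60 below, with 60 without pre-stimulation cell 1, 53 without cell 3 and 50 without cell 4. Genes past 4-fold in each date and on leaving out any cell, 326 higher and 285 lower, became 1067 and 583 at 10 CPM, 70 and 54 at 200 CPM, 1099 and 636 with no filter, and 478 and 160 with TMM and 473 and 160 with DESeq2 scaling. The median log2 ratio of -0.32 became 0.38 with TMM, 0.37 with DESeq2, -0.13 with the first date, -0.11 with the pre-stimulation cells of both indexes, -0.11 at 10 CPM, 4.4e-05 at 200 CPM and 0.066 with no filter, and lay between -0.39 and -0.25 on leaving out each cell. TMM and DESeq2 factors also rescaled the CPM behind the minimum, so counts and medians with them are over a changed set of genes. The difference of 759 in median genes detected became 714 without thinning and 606 with at least 5 reads, and 742 to 794 on leaving out each cell. The difference in median SD of -0.88 became -0.67 on log2(CPM + 10), and -0.98 to -0.85 on leaving out each cell. The correlation with the IL-13 index, 0.59, became 0.40 at 10 CPM and 0.79 at 200 CPM. Directions reversed for Cks1b with the pre-stimulation cells of both indexes (-0.35), Irf2bp2 without pre-stimulation cell 2 (2.64, with -5.61 as the lowest value on leaving out a cell), and Il3 with the second date (-0.82) or without activated cell 4 (-1.50, with 4.32 as the highest value), where both Il3 groups were under the floor. Of 95 named genes past 4-fold, 74 stayed past it under every alternative run. Many of these genes were named because they stayed past 4-fold in each date and on leaving out any cell. Those alternatives could not lose them, so this count does not measure stability. The causes were not tested. Results rest on 5 resting cells from 1 date, and 3 reads over a group set the floor.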
